A study of Homo sapiens with 33 samples.

Results

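The 31 genes described here carry glucose into HT29 cells, break it down to pyruvate, and pass the pyruvate on to lactate or into the mitochondrion. They were chosen by symbol from the count table, were all among the 17432 genes tested, and make up 31 of 60675 genes in the table. HT29 is a human colorectal adenocarcinoma cell line. Cells were exposed for 24 h to an ethanol extract of one of 4 traditional formulas, or to vehicle, before RNA was sequenced, and the labels give no genetic change in any group. The extract groups were Sagunja-tang and Samul-tang with 2 libraries per dose, and Palmul-tang and Sibjeondaebo-tang with 3 libraries per dose. Doses were 20, 100 and 500 µg/mL for every extract, called low, medium and high here. The 3 vehicle libraries received 0.1% DMSO according to the sample labels, while the series text gives 2%, and which applies was not settled here. No DMSO share was taken from the labels for the extract libraries. Every sample title names BatchE. Palmul-tang joins the herbs of Sagunja-tang with those of Samul-tang, and Sibjeondaebo-tang extends Palmul-tang with further herbs. Sample codes begin differently for vehicle, for the pair of Sagunja-tang and Samul-tang, and for the pair of Palmul-tang and Sibjeondaebo-tang. The labels do not say what this marks. It cannot be told apart from extract against vehicle, or from one pair of formulas against the other. All libraries come from 1 cell line, and the labels do not say whether replicates were grown separately. The spread behind every p-value is that between these libraries and may be technical.

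Glycolysis splits glucose into pyruvate in the cytosol and yields ATP and NADH. Lactate dehydrogenase turns pyruvate into lactate and regenerates NAD+, and monocarboxylate transporters carry the lactate across the plasma membrane. The mitochondrial pyruvate carrier and the pyruvate dehydrogenase complex lead pyruvate to acetyl-CoA instead, and pyruvate dehydrogenase kinases switch that complex off while its phosphatases switch it on. Many cancer cells, colorectal ones included, run glycolysis to lactate even when oxygen is present. The transcripts describe none of these fluxes directly.

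Total counts ran from 28.6 to 49.1 M in extract libraries and from 31.1 to 35.6 M in vehicle libraries. The 31 genes took 1.42 to 1.68% of all counts with extracts and 1.40 to 1.45% in vehicle. Their median level was 132 CPM (counts scaled to library size), against 13.6 CPM over all genes tested. The shares of all genes called that are given below were not matched to this level. Mitochondrially encoded transcripts took 5.71 to 8.83% of counts with extracts and 8.69 to 11.4% in vehicle, and the part of that difference in the results below was not tested. All 10 colon epithelium markers listed were tested, with CDX1 lowest at 0.890 CPM on average. PTPRC, which defines leukocytes, had at most 3 counts in a library, CD3E and the fibroblast gene COL3A1 at most 2, and HBB of red cells at most 1. Other listed markers of these cell types passed the filter: COL1A1 and LUM of fibroblasts averaged 1.24 and 0.867 CPM, PECAM1 of endothelium 1.59 CPM, and LYZ, listed as a leukocyte marker, 1496 CPM. Libraries of 2 groups matter for what follows. Vehicle replicate 3 was the lowest of its group for 20 of the 31 genes and the highest for 10, while replicate 1 was the highest for 15. High-dose Sagunja-tang replicate 2 was above replicate 3 for 19 of the 31. The same counts were not made over all genes, so these positions are not shown to be particular to the 31. The difference between these 2 replicates followed exon length across genes (Spearman correlation of the deviation with length -0.248 for replicate 2 and, as its mirror image, 0.248 for replicate 3), which does not say which of them stands apart. In bulk RNA, fewer cells and less RNA per cell cannot be told apart.

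Per kilobase of exon, GAPDH had the highest vehicle level of the 31 at 1296 CPM per kb. PKM followed at 310.0, ALDOA at 305, ENO1 at 278 and TPI1 at 253 CPM per kb. The lowest on the same scale were 3 regulators of pyruvate dehydrogenase, PDP1 at 2.97, PDK1 at 1.97 and PDK3 at 0.405 CPM per kb, while PDK2 was at 7.14 CPM per kb.

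At the high dose most of these genes were higher than in vehicle. With Sibjeondaebo-tang 25 of the 31 rose and 2 fell at an adjusted p of 0.05 or less, where 39.6% of all genes were called in either direction, 20.5% higher and 19.1% lower (edgeR quasi-likelihood test, Benjamini-Hochberg adjustment over all genes). With Palmul-tang 18 rose and 2 fell, against 32.1% of all genes called, 17.3% higher and 14.8% lower. With Samul-tang 18 rose and 2 fell, against 27.5% called, 15.0% higher and 12.5% lower. With Sagunja-tang 14 rose and 2 fell, against 36.7% called and 18.7% called higher. The median log2 fold change of the 31 was 0.21 with Sibjeondaebo-tang, 0.15 with Palmul-tang, 0.19 with Samul-tang and 0.12 with Sagunja-tang, beside medians of all genes close to 0. The largest of these changes was 0.81, for SLC16A3 with Sagunja-tang. These 4 comparisons share the same 3 vehicle libraries. Fitted with only the groups compared, high-dose Sagunja-tang called 8 of the 31.

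**Figure D1:**
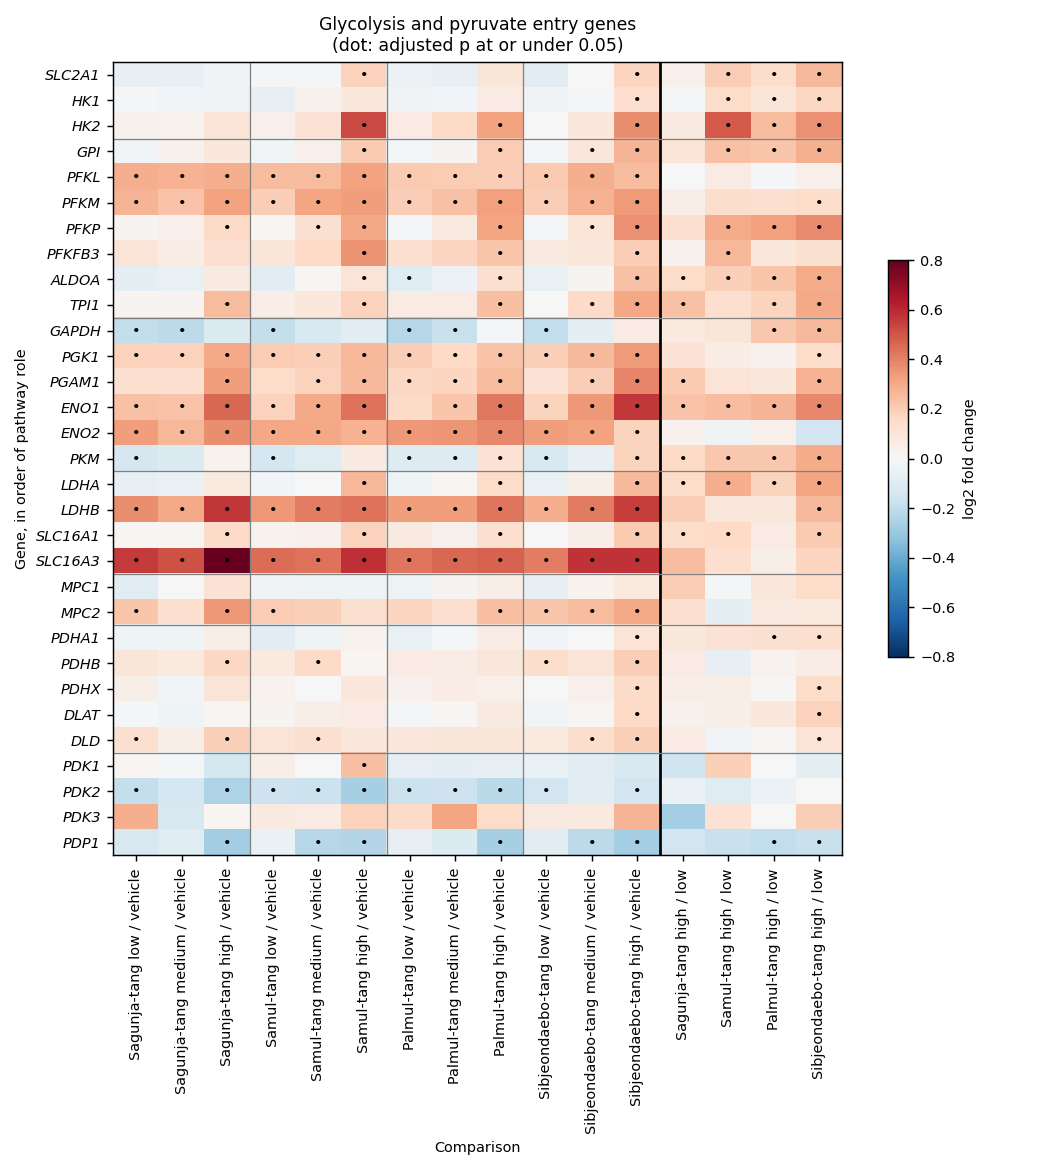
Log2 fold change of each of the 31 genes (rows, ordered by role) in the 12 comparisons of a formula and dose with vehicle and in the 4 comparisons of high with low dose (columns); colour gives the log2 fold change and a dot marks an adjusted p at or under 0.05. PFKL, PFKM, PGK1, ENO2, LDHB and SLC16A3 carry a dot in all 12 vehicle columns, and ALDOA, ENO1, PKM and LDHA in all 4 high-to-low columns.

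Lower doses called fewer of them. At the medium dose 7 rose and 1 fell with Sagunja-tang, where 16.4% of all genes were called, 8.40% higher and 8.05% lower. With medium-dose Samul-tang 11 rose and 2 fell (20.1% of all genes called, 10.9% higher and 9.27% lower). With medium-dose Palmul-tang 8 rose and 3 fell (20.0% called, 10.3% higher and 9.63% lower). With medium-dose Sibjeondaebo-tang 13 rose and 1 fell (26.0% called, 14.0% higher). At the low dose 9 rose and 3 fell with Sagunja-tang (21.9% called, 11.1% higher and 10.7% lower), and 8 rose and 3 fell with Samul-tang (17.6% called, 8.89% higher and 8.71% lower). Low-dose Palmul-tang had 7 higher and 4 lower (20.3% called, 10.6% higher and 9.74% lower), and low-dose Sibjeondaebo-tang 9 higher and 3 lower (22.0% called, 11.1% higher and 10.9% lower). These counts depend on single libraries. Leaving one out can also change how many of all genes are called, and that share is not given for these fits. Without vehicle replicate 3 the low dose called 4, 2, 5 and 4 of the 31 for the formulas in that order, and the medium dose called 3, 6, 3 and 9. Leaving out replicate 2 of the extract group itself took the medium-dose counts to 0 with Sagunja-tang, 1 with Samul-tang and 2 with Palmul-tang, and the low-dose counts to 3, 1 and 4. Low-dose Sibjeondaebo-tang called 3 without its replicate 3.

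The comparison of high with low dose within a formula uses no vehicle library. With Sibjeondaebo-tang 20 of the 31 rose and 1 fell between these doses, against 29.9% of all genes called, 15.5% higher and 14.3% lower. With Palmul-tang 12 rose and 1 fell (14.4% called, 7.66% higher and 6.75% lower). With Samul-tang 11 rose and none fell (7.53% called, 4.10% higher and 3.43% lower), and with Sagunja-tang 7 rose and none fell (7.19% called, 3.33% higher and 3.86% lower). The Samul-tang count was 5 without low-dose replicate 3. The median log2 fold change of the 31 was 0.17, 0.09, 0.12 and 0.08 for the 4 formulas as just named. ALDOA, ENO1, PKM and LDHA rose in all 4, which 1.02% of all genes did. In 3 or 4 of the 4, 11 of the 31 rose, against 3.71% of all genes. The Sagunja-tang count rests on high-dose replicate 2: without it 0 of the 31 were called and the median was 0.05, and without replicate 3 the count was 14. With only these groups in the fit it was also 0.

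Promoters are shown for HK2, LDHA and PFKP, which rose by dose with Samul-tang and were higher with high-dose Samul-tang than with high-dose Sagunja-tang, so that a promoter with the core of the hypoxia response element can be set beside one without it. Each run holds the 250 bases before the RefSeq gene start (GRCh38.p14), given 5′ to 3′ on the gene's strand; capitals mark ACGTG or GCGTG on either strand, so that CACGT and CACGC are their reverse readings.
HK2, chr2:74833877-74834126, plus strand: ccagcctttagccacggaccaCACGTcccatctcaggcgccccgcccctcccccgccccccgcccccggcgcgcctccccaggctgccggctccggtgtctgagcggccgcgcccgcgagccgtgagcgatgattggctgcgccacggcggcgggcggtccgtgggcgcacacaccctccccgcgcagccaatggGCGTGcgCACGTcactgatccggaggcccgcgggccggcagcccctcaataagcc
LDHA, chr11:18394313-18394562, plus strand: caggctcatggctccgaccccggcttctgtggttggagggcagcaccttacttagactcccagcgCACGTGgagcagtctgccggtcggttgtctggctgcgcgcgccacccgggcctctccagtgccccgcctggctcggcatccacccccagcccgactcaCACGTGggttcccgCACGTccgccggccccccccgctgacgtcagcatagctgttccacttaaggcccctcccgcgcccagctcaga
PFKP, chr10:3067720-3067969, plus strand: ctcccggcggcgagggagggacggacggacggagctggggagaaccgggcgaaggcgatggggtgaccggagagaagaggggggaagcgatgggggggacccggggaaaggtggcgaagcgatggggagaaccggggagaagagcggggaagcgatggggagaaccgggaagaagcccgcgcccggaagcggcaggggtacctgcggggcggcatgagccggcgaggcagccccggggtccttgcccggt

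The HK2 window held 2 matches to ACGTG and 1 to GCGTG. The LDHA window held 5 strand matches to ACGTG in 3 places, 2 of which were the palindrome CACGTG, an E-box that contains ACGTG on both strands. The PFKP window held neither motif. Nor did those of SLC2A1, which rose in the same comparisons, and PDK1, neither of which is shown. Sequence outside the 250 bases was not searched. Windows were found for 29 of the 31 genes. ACGTG was in 10 of these 29 (34.5%) and in 18.7% of 27305 promoters of the same length, GCGTG in 11 (37.9%) and in 31.9%, and CACGTG in 3 (10.3%) and in 6.49%. Either core was in 16 of 29 (55.2%) and in 43.1% of all promoters. These are matches of letters and were not tested as binding.

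Of the 3 genes of glucose uptake and trapping, all rose with high-dose Sibjeondaebo-tang (20.5% of all genes called higher). With Samul-tang 2 rose (15.0%), with Palmul-tang 1 (17.3%) and with Sagunja-tang none (18.7%). HK2 encodes a hexokinase that phosphorylates glucose and so keeps it in the cell. HK2 was at 83.0 and 74.3 CPM with high-dose Samul-tang, 72.5, 67.9 and 64.1 CPM with Palmul-tang, 72.5, 69.9 and 69.1 CPM with Sibjeondaebo-tang and 57.3 and 59.6 CPM with Sagunja-tang, against 58.4, 54.7 and 50.1 CPM in vehicle. Every library of the first 3 formulas lay above every vehicle library, while Sagunja-tang overlapped vehicle. Here and below the same libraries gave the calls, so a lack of overlap is no separate support. How often libraries did not overlap over all genes was not counted. The log2 fold changes over vehicle were 0.53 ± 0.07 with Samul-tang (edgeR adjusted p = 6.32e-06), 0.32 ± 0.07 with Palmul-tang (0.000492) and 0.37 ± 0.07 with Sibjeondaebo-tang (6.53e-05), each ± SE. Sagunja-tang gave 0.10 ± 0.08 (adjusted p = 0.311). Leaving out any 1 library ended none of the 3 calls. Low-dose HK2 levels were 55.1 and 56.6 CPM with Samul-tang, 58.0, 61.1 and 52.1 CPM with Palmul-tang and 57.0, 51.6 and 55.3 CPM with Sibjeondaebo-tang, within the vehicle range but for 1 Palmul-tang library.

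SLC2A1, the widely expressed glucose transporter GLUT1, stood at 581 and 588 CPM with high-dose Samul-tang and 595, 566 and 576 CPM with Sibjeondaebo-tang, against 530.4, 529.8 and 482 CPM in vehicle. All 5 of these extract libraries were above the 3 of vehicle, with log2 fold changes of 0.19 ± 0.04 and 0.17 ± 0.04 (edgeR adjusted p = 0.00167 and 0.000677). With Palmul-tang SLC2A1 was at 569, 549 and 531 CPM and missed the threshold over vehicle (0.10 ± 0.04, adjusted p = 0.0538). Sagunja-tang libraries, at 496 and 514 CPM, lay inside the vehicle range. HK1, the more constant hexokinase, was called over vehicle in 1 of 4 formulas at the high dose, by 0.14 ± 0.03 with Sibjeondaebo-tang.

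In upper glycolysis all 7 genes rose with high-dose Sibjeondaebo-tang, Palmul-tang and Samul-tang (20.5, 17.3 and 15.0% of all genes called higher). With Sagunja-tang 4 of 7 rose (18.7%). Some of these calls rest on 1 library. Leaving one out ended each of the 3 for PFKFB3 (Samul-tang replicate 2; Palmul-tang replicate 1 or vehicle replicate 3; any Sibjeondaebo-tang replicate or vehicle replicate 3). The ALDOA call with Samul-tang was lost whichever library was left out. TPI1 lost its call with Samul-tang without replicate 3, and PFKL and TPI1 theirs with Sagunja-tang without replicate 2. The group holds GPI, the isomerase after hexokinase, 3 phosphofructokinase genes, PFKFB3, which makes the activator of phosphofructokinase, and ALDOA and TPI1, which split and interconvert the resulting sugar phosphates. PFKP, the platelet-type phosphofructokinase, had the smallest p of the group. It was at 179, 176 and 177 CPM with high-dose Sibjeondaebo-tang, 175, 170.2 and 168 CPM with Palmul-tang, 172 and 169 CPM with Samul-tang and 152 and 154 CPM with Sagunja-tang, against 139, 144 and 129 CPM in vehicle. No extract library overlapped vehicle at this dose. PFKP changed by 0.37 ± 0.04 with Sibjeondaebo-tang (edgeR adjusted p = 1.31e-08) and by 0.16 ± 0.04 with Sagunja-tang (0.00319). At the low dose its 4 values over vehicle lay between -0.01 and 0.02.

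The other two phosphofructokinase genes behaved otherwise with dose. PFKM, the muscle-type gene, was at 77.8 and 71.3 CPM with low-dose Sagunja-tang, 71.1 and 70.8 with Samul-tang, 70.8, 73.5 and 68.1 with Palmul-tang and 68.2, 67.6 and 76.3 with Sibjeondaebo-tang, against 65.1, 60.4 and 60.0 CPM in vehicle. Every low-dose library was already above vehicle. PFKM rose over vehicle in all 12 comparisons, by 0.19 to 0.34, and PFKL, the liver-type gene, by 0.20 to 0.32. High over low dose PFKL moved by -0.01 to 0.07 and was called in no formula, and PFKM was called in 1, Sibjeondaebo-tang (0.15 ± 0.05).

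Of the 6 genes of lower glycolysis, 5 rose with high-dose Palmul-tang and Sibjeondaebo-tang (17.3 and 20.5% of all genes called higher). With Samul-tang and Sagunja-tang 4 rose (15.0 and 18.7%). ENO1, the enolase gene, changed most. It was at 2168, 2148 and 2183 CPM with high-dose Sibjeondaebo-tang, 2034, 1987 and 1866 CPM with Palmul-tang, 2065 and 1897 CPM with Samul-tang and 2181 and 1849.8 CPM with Sagunja-tang, against 1588, 1469 and 1341 CPM in vehicle. All extract libraries at this dose were above all vehicle libraries. ENO1 changed by 0.56 ± 0.06 with Sibjeondaebo-tang (edgeR adjusted p = 2.3e-08) and by 0.42 to 0.46 with the other formulas, and by 0.23 to 0.39 between high and low dose. PGK1, which makes the first ATP of the pathway, rose over vehicle in all 12 comparisons (0.16 to 0.34), and ENO2, the enolase known from neurons, in all 12 (0.18 to 0.38). PGAM1, the phosphoglycerate mutase, rose at the high dose of all 4 formulas, by 0.25 to 0.39, and in 8 of the 12 comparisons.

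PKM, pyruvate kinase, and GAPDH did not follow ENO1 at lower doses. PKM was at 3128, 3025 and 2876 CPM with high-dose Sibjeondaebo-tang and at 2548, 2484 and 2303 CPM with the low dose, a change of 0.30 ± 0.04 (edgeR adjusted p = 4.38e-07). Vehicle had 2634, 2647 and 2689 CPM, below all 3 high-dose and above all 3 low-dose libraries. Over vehicle PKM fell by 0.10 to 0.14 at the low dose of all 4 formulas and rose at the high dose of Palmul-tang (0.11 ± 0.04) and Sibjeondaebo-tang (0.18 ± 0.04). The 4 low-dose calls were lost without vehicle replicate 3, and the high-dose Palmul-tang call without vehicle replicate 2 or Palmul-tang replicate 1 or 2. GAPDH was at 3483, 2994 and 3417 CPM with low-dose Palmul-tang and 3426, 3409 and 3281 CPM with low-dose Sibjeondaebo-tang, against 3651, 3844 and 4099 CPM in vehicle. It fell by 0.19 to 0.23 at the low dose of all 4 formulas. No high-dose value of GAPDH was called (-0.11 to 0.07). Without vehicle replicate 3 the low-dose GAPDH call remained with Palmul-tang alone, and that call was lost without low-dose Palmul-tang replicate 2. GAPDH is often used as a constant reference gene.

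**Figure D2:**
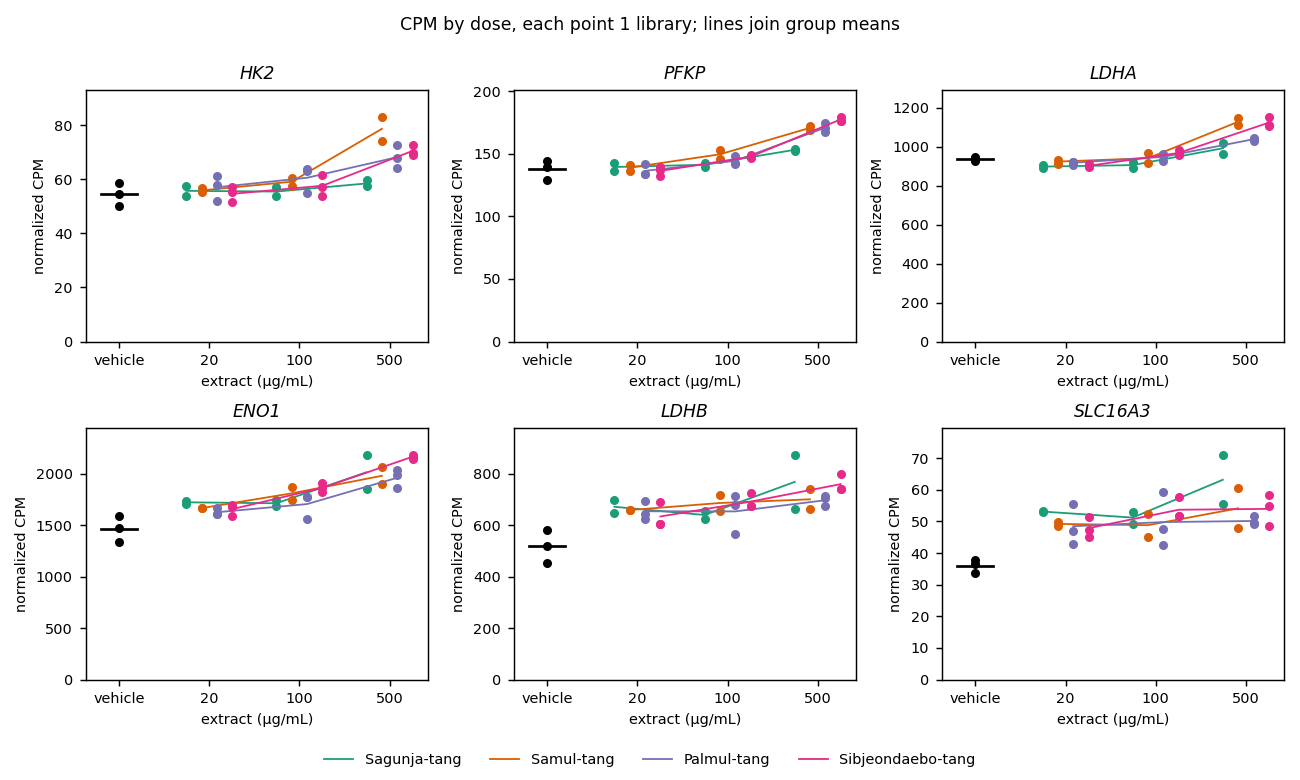
Normalized CPM (vertical axes, starting at 0) of HK2, PFKP, LDHA, ENO1, LDHB and SLC16A3 by dose (horizontal axis, vehicle then 20, 100 and 500 µg/mL, evenly spaced), with 1 point per library, lines through group means and a bar for the vehicle mean. HK2, PFKP and LDHA climb at 500 µg/mL, while LDHB and SLC16A3 are above the vehicle libraries at nearly every dose.

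Among the genes of lactate handling, LDHA and SLC16A1 were called over vehicle at the high dose and LDHB and SLC16A3 at every dose. LDHA encodes the lactate dehydrogenase subunit that favours lactate formation. LDHA was at 1145 and 1109 CPM with high-dose Samul-tang, 1106, 1109.9 and 1151 CPM with Sibjeondaebo-tang, 1029.7, 1038 and 1044 CPM with Palmul-tang and 1019 and 963 CPM with Sagunja-tang, against 939, 927 and 947 CPM in vehicle. All were above vehicle, though Sagunja-tang replicate 3 only just. LDHA rose by 0.27 ± 0.03 with Samul-tang (edgeR adjusted p = 9.36e-07), 0.26 ± 0.03 with Sibjeondaebo-tang (1.12e-07) and 0.15 ± 0.03 with Palmul-tang (0.000353), and stood at 0.08 ± 0.03 with Sagunja-tang (0.0543). At the low dose it lay between -0.06 and -0.02 and was called in no formula.

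LDHB, the subunit that favours pyruvate formation, was at 697 and 646 CPM with low-dose Sagunja-tang and 659 and 658 CPM with low-dose Samul-tang, against 582, 518 and 453 CPM in vehicle. These low-dose libraries all exceeded vehicle, whose replicate 3 was lowest. LDHB rose over vehicle in all 12 comparisons, by 0.29 to 0.57, and was called between high and low dose only with Sibjeondaebo-tang (0.26 ± 0.09). SLC16A3 encodes MCT4, a transporter that exports lactate from glycolytic cells. It was at 71.0 and 55.3 CPM with high-dose Sagunja-tang, 60.5 and 47.8 CPM with Samul-tang, 49.2, 51.6 and 49.6 CPM with Palmul-tang and 48.7, 54.9 and 58.3 CPM with Sibjeondaebo-tang, against 37.9, 36.5 and 33.7 CPM in vehicle. No library at this dose overlapped vehicle, and the replicates of Sagunja-tang and Samul-tang lay far apart. SLC16A3 rose over vehicle in all 12 comparisons by 0.41 to 0.81, and high over low dose it was called in none (0.05 to 0.25). SLC16A1, the transporter MCT1, rose over vehicle at the high dose of all 4 formulas, by 0.13 to 0.21, and was not called at the lower doses. Rises in all 12 comparisons were found for 6 of the 31 genes (PFKL, PFKM, PGK1, ENO2, LDHB and SLC16A3) and for 2.99% of all genes. Many of these calls at the lower doses rest on 1 library. Leaving out some 1 library ended 8 of the 12 calls for LDHB, 7 each for SLC16A3 and PGK1, 6 for PFKL, 5 for ENO2 and 4 for PFKM, and without vehicle replicate 3 LDHB was called at no low dose.

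The mitochondrial pyruvate carrier is made of MPC1 and MPC2, which work as a pair. MPC2 was at 59.2, 58.6 and 59.6 CPM with high-dose Sibjeondaebo-tang, 56.5, 59.0 and 54.9 CPM with Palmul-tang, 66.7 and 55.6 CPM with Sagunja-tang and 51.4 and 53.3 CPM with Samul-tang, against 52.2, 48.8 and 42.8 CPM in vehicle. The Samul-tang libraries overlapped vehicle and the others did not. MPC2 rose by 0.30 ± 0.06 with Sibjeondaebo-tang, 0.24 ± 0.06 with Palmul-tang and 0.35 ± 0.07 with Sagunja-tang (edgeR adjusted p = 0.0004, 0.00412 and 0.000347). The Palmul-tang call was lost without vehicle replicate 3 and the Sagunja-tang call without high-dose Sagunja-tang replicate 2. MPC1 stood at 28.97, 29.2 and 27.2 CPM with high-dose Sibjeondaebo-tang, 27.7, 28.4 and 27.8 CPM with Palmul-tang, 32.1 and 26.4 CPM with Sagunja-tang and 24.6 and 27.7 CPM with Samul-tang, against 26.7, 27.4 and 26.6 CPM in vehicle. Sagunja-tang and Samul-tang straddled the vehicle libraries, and MPC1 was called in none of the 12 comparisons with vehicle, where it lay between -0.08 and 0.12, and ranged over all 33 libraries from 24.4 to 32.1 CPM.

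All 5 genes of the pyruvate dehydrogenase complex rose with high-dose Sibjeondaebo-tang, by 0.11 to 0.20 (20.5% of all genes called higher). PDHA1 and PDHB encode the first enzyme, DLAT the second and DLD the third, and PDHX binds the third to the core. With Sagunja-tang PDHB rose by 0.16 ± 0.05 and DLD by 0.19 ± 0.04 at that dose, and the PDHB call was lost without high-dose Sagunja-tang replicate 2 or vehicle replicate 3. At lower doses PDHB rose with medium-dose Samul-tang (0.16 ± 0.05) and low-dose Sibjeondaebo-tang (0.14 ± 0.04), and DLD with medium-dose Samul-tang (0.13 ± 0.04), medium-dose Sibjeondaebo-tang (0.14 ± 0.04) and low-dose Sagunja-tang (0.13 ± 0.04). Each of those 5 calls was lost without vehicle replicate 3. Palmul-tang gave 0.04 to 0.10 over the 5 genes and Samul-tang 0.02 to 0.09, and no gene passed with either at the high dose. DLAT was at 150.5, 145 and 142 CPM with high-dose Sibjeondaebo-tang and 140.3, 134 and 137 CPM with Palmul-tang, against 127, 130.5 and 134 CPM in vehicle. The Sibjeondaebo-tang libraries were above all of the vehicle and Palmul-tang libraries. DLAT rose by 0.16 ± 0.03 over vehicle with Sibjeondaebo-tang (edgeR adjusted p = 0.000147), while Palmul-tang gave 0.07 ± 0.03 (0.0791). The difference between these formulas was 0.09 ± 0.03 and was not called (0.111), so the gene is not shown to differ between them.

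Of the 4 regulators of the complex, PDP1 and PDK2 fell at the high dose of every formula. PDP1, a phosphatase that activates pyruvate dehydrogenase, was at 14.2, 14.0 and 13.2 CPM with high-dose Sibjeondaebo-tang, 14.4, 13.8 and 13.4 CPM with Palmul-tang, 14.0 and 14.4 CPM with Samul-tang and 13.2 and 14.3 CPM with Sagunja-tang, against 16.6, 17.7 and 15.7 CPM in vehicle. Every high-dose library was below every vehicle library. PDP1 fell by 0.23 to 0.28 with the 4 formulas (largest edgeR adjusted p = 0.0072, with Samul-tang), and the calls with Sagunja-tang and Samul-tang were lost without replicate 2 of each. PDK2, a kinase that inactivates the complex, fell at the high dose by 0.16 to 0.27, at the low dose of all 4 formulas by 0.15 to 0.19, and at the medium dose of Samul-tang and Palmul-tang. It was at 32.5 and 32.5 CPM with high-dose Samul-tang, 32.7 and 33.2 CPM with Sagunja-tang, 33.5, 32.3 and 35.1 CPM with Palmul-tang and 36.0, 34.4 and 35.0 CPM with Sibjeondaebo-tang, against 36.0, 38.3 and 43.2 CPM in vehicle. Vehicle replicate 3 was the highest vehicle library for PDK2, and without it the call with high-dose Sibjeondaebo-tang and all 6 medium- and low-dose calls were lost. With only the groups compared in the fit, 8 of its 10 calls were lost, those with high-dose Sagunja-tang and Sibjeondaebo-tang among them. Falls with all 4 formulas at the high dose were found for these 2 of the 31 genes and for 7.11% of all genes. They were thus no more frequent among the 31 than among all genes. PDK3, at 1.59 to 2.73 CPM over the libraries, was called in no comparison with vehicle.

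PDK1, another of the inactivating kinases, passed the test in 1 of the 12 comparisons with vehicle, that of high-dose Samul-tang. Its level was 33.9 and 35.2 CPM with high-dose Samul-tang, 24.5 and 28.4 CPM with Sagunja-tang, 27.8, 26.6 and 29.2 CPM with Palmul-tang and 26.9, 28.04 and 25.6 CPM with Sibjeondaebo-tang, against 28.4, 28.9 and 30.5 CPM in vehicle. Both Samul-tang libraries were above every other library of the set. PDK1 rose by 0.24 ± 0.06 over vehicle (edgeR adjusted p = 0.00372), and the call was lost without high-dose Samul-tang replicate 3. The other formulas gave -0.14 ± 0.06, -0.07 ± 0.05 and -0.12 ± 0.06 at that dose, none of them called.

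**Figure D3:**
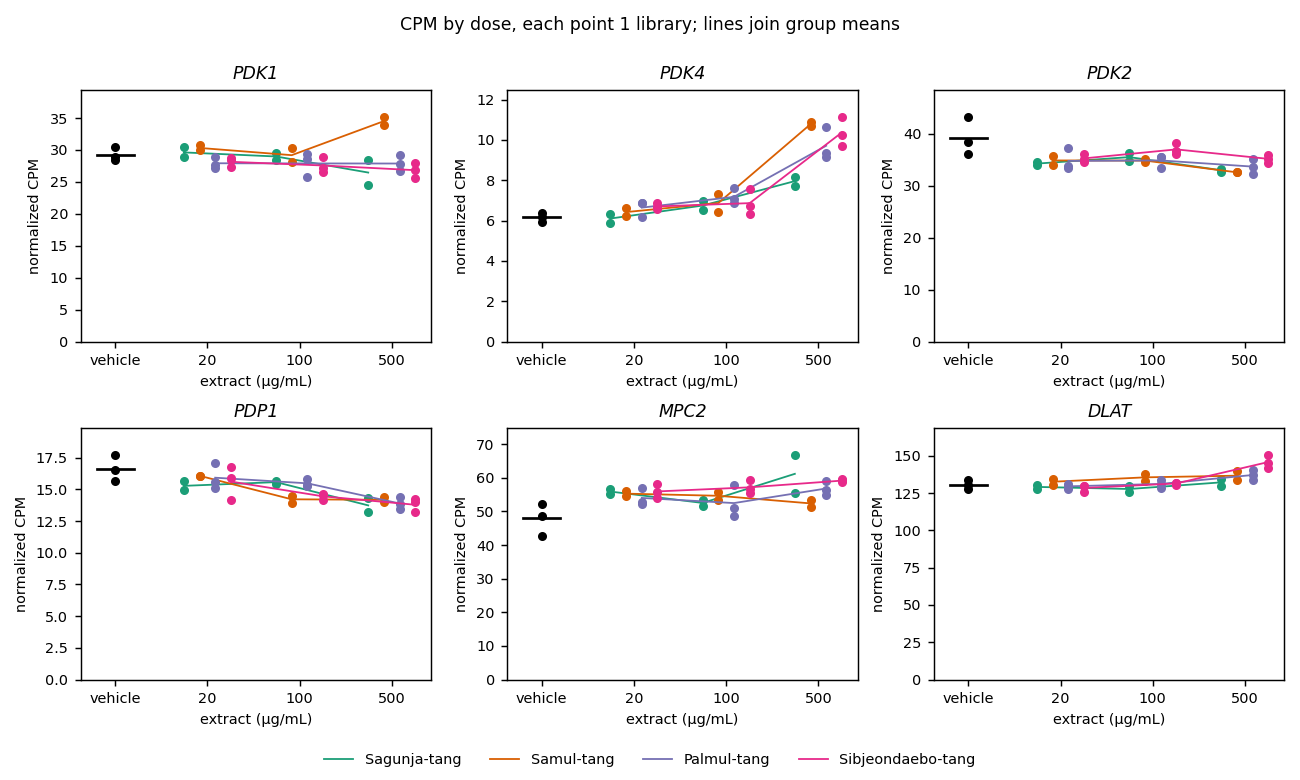
Normalized CPM (vertical axes, starting at 0) of PDK1, PDK4, PDK2, PDP1, MPC2 and DLAT by dose (horizontal axis, vehicle then 20, 100 and 500 µg/mL, evenly spaced), with 1 point per library, lines through group means and a bar for the vehicle mean. PDK4 climbs at 500 µg/mL with every formula, PDK1 with Samul-tang, and PDP1 lies below vehicle at 500 µg/mL with every formula.

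Formulas were compared directly at 500 µg/mL, where 5 of the 31 genes were higher with Samul-tang than with Sagunja-tang and none was lower, against 5.47% of all genes called, 3.55% higher and 1.92% lower. HK2 differed by 0.43 ± 0.08 (edgeR adjusted p = 0.00344), PDK1 by 0.38 ± 0.07 (0.0015) and SLC2A1 by 0.21 ± 0.05 (0.0108). LDHA differed by 0.19 ± 0.04 (0.00369) and PFKP by 0.16 ± 0.04 (0.0371). For all 5 genes both Samul-tang libraries were above both Sagunja-tang libraries. The same libraries gave the calls, so this order is no separate support. Without Sagunja-tang replicate 2 only the LDHA difference was called, at 0.22, and HK2 stood at 0.39 with an adjusted p of 0.0949. Without Sagunja-tang replicate 3, 13 of the 31 genes were called. Without Samul-tang replicate 2 the calls for HK2, LDHA, PFKP and SLC2A1 were lost, and without its replicate 3 those for PFKP and SLC2A1. With only the groups compared in the fit 0 of the 31 were called, and DESeq2 called 8. SLC16A3, MPC2 and LDHB went the other way, by -0.22 ± 0.13, -0.22 ± 0.08 and -0.13 ± 0.11, and were not called.

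Sibjeondaebo-tang exceeded Palmul-tang for 2 of the 31 genes at that dose and none was lower, against 3.87% of all genes called with 0.350% higher and 3.52% lower. ALDOA was at 1433, 1411 and 1379.6 CPM with Sibjeondaebo-tang, against 1310.3, 1308 and 1294 CPM with Palmul-tang. The libraries did not overlap, and the difference was 0.11 ± 0.03 (edgeR adjusted p = 0.0495). LDHA differed by 0.11 ± 0.03 (0.0201), again with no overlap. Here too the same libraries gave the calls, so the lack of overlap is no separate support. The ALDOA call was lost whichever of the 6 libraries was left out, and the LDHA call without 3 of them (Palmul-tang replicates 1 and 2 and Sibjeondaebo-tang replicate 3). DESeq2 called 4 of the 31.

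**Figure D4:**
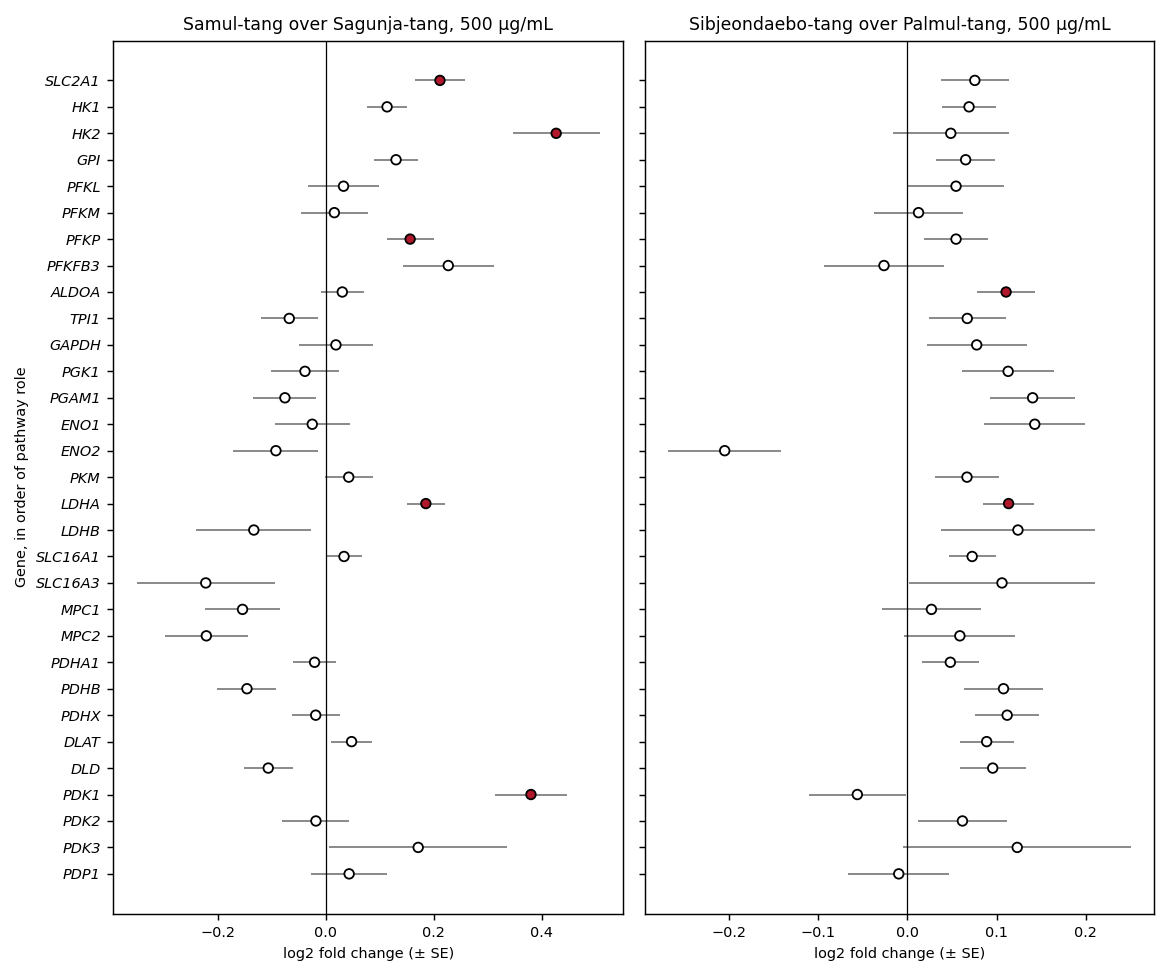
Log2 fold change ± SE (horizontal axes) of each of the 31 genes between formulas at 500 µg/mL, Samul-tang over Sagunja-tang (left) and Sibjeondaebo-tang over Palmul-tang (right); filled points mark an adjusted p at or under 0.05. HK2 and PDK1 lie farthest to the right on the left panel at 0.43 and 0.38, and ALDOA and LDHA are the filled points on the right panel.

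Whether the step between low and high dose itself differed was tested as an interaction. Between Samul-tang and Sagunja-tang none of the 31 passed with edgeR (0.138% of all genes called) and none with DESeq2, and 8 were at an unadjusted p under 0.05, as were 11.1% of all genes. HK2 had a difference of steps of 0.42 ± 0.11 there (adjusted p = 0.17) and PDK1 of 0.35 ± 0.09 (0.17). Between Sibjeondaebo-tang and Palmul-tang 1 gene passed, as higher, against 1.45% of all genes, 0.0287% higher and 1.42% lower. SLC16A1 was at 156, 151 and 153 CPM with high and 134, 133 and 132 CPM with low-dose Sibjeondaebo-tang, and at 147, 145 and 146 and 138, 140.2 and 140.4 CPM with high- and low-dose Palmul-tang. The steps differed by 0.15 ± 0.04 (edgeR adjusted p = 0.0433), and the call was lost whichever of the 12 libraries was left out.

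Other genes of the pathway, 42 listed of which 27 passed the filter on low counts, were called in both directions. At the high dose 5 rose and 5 fell with Sagunja-tang, against 18.7% of all genes called higher. In that comparison 3134 of the 17432 genes tested were called lower. With Samul-tang 9 rose and 3 fell, against 15.0% of all genes higher and 12.5% lower. With Palmul-tang 11 rose and 4 fell, against 17.3% higher and 14.8% lower, and with Sibjeondaebo-tang 10 rose and 4 fell, against 20.5% higher and 19.1% lower. PDK4, a pyruvate dehydrogenase kinase known from fasting, was at 10.7 and 10.9 CPM with high-dose Samul-tang, 10.3, 9.71 and 11.1 CPM with Sibjeondaebo-tang, 9.14, 9.37 and 10.6 CPM with Palmul-tang and 7.73 and 8.18 CPM with Sagunja-tang, against 5.95, 6.18 and 6.38 CPM in vehicle. All high-dose libraries lay above vehicle. PDK4 rose by 0.81 ± 0.08 with Samul-tang (edgeR adjusted p = 5.39e-08), 0.75 ± 0.08 with Sibjeondaebo-tang, 0.66 ± 0.08 with Palmul-tang and 0.37 ± 0.09 with Sagunja-tang, and by 0.39 to 0.75 between high and low dose. PCK2, the mitochondrial PEP carboxykinase, and PGP, a phosphatase that clears side products of glycolysis, rose with all 4 formulas, by 0.21 to 0.40 and 0.25 to 0.36. Rises with all 4 formulas, as for PDK4, PCK2 and PGP, were called for 8.96% of all genes. Whether these pathway genes exceed that share was not tested. Rises with 3 formulas at the high dose were found for the hexokinase-like HKDC1 (0.11 to 0.31 over all 4 formulas), the muscle enolase ENO3 (0.17 to 0.74), the phosphoglucomutase PGM1 (0.10 to 0.34), BSG, partner of MCT1 and MCT4 (-0.04 to 0.17), pyruvate carboxylase PC (0.12 to 0.27) and GPD2 of the glycerol phosphate shuttle (0.08 to 0.24). BPGM, which makes the regulator of haemoglobin in red cells, and PGM2 rose with 2 formulas (0.12 to 0.30 and 0.05 to 0.16). ALDOC, the aldolase of brain, the glucose-6-phosphatase G6PC3 and PDPR, a regulator of the pyruvate dehydrogenase phosphatase, fell with 2 formulas, over ranges of -0.42 to -0.10, -0.18 to -0.01 and -0.23 to -0.09.

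The 2 other monocarboxylate transporters listed, SLC16A7 and SLC16A4, fell at the high dose of all 4 formulas, as did 7.11% of all genes. SLC16A7, the transporter MCT2, was at 12.8 and 16.6 CPM with high-dose Sagunja-tang, 16.2 and 17.8 CPM with Samul-tang, 16.4, 14.8 and 15.1 CPM with Palmul-tang and 15.0, 15.7 and 14.8 CPM with Sibjeondaebo-tang, against 21.0, 22.2 and 23.1 CPM in vehicle. All high-dose libraries were below vehicle, and SLC16A7 fell by 0.37 to 0.58. At the low dose its values over vehicle were 0.04, 0.11, -0.04 and -0.04 with the formulas in the same order, none called. SLC16A4 fell by 0.21 to 0.40 at the high dose.

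Of 7 regulators of glycolytic genes listed and tested, 4 fell over vehicle with high-dose Sagunja-tang and 3 with each other formula, and the rest did not pass the test. Of all genes, 19.1% were called lower with high-dose Sibjeondaebo-tang, 14.8% with Palmul-tang and 12.5% with Samul-tang. With high-dose Sagunja-tang 3134 of the 17432 genes tested were called lower. HIF1A, the oxygen-regulated subunit of the hypoxia factor, was at 118 and 127 CPM with high-dose Samul-tang and 131, 120.4 and 122 CPM with Sibjeondaebo-tang, against 136, 147 and 147 CPM in vehicle. High-dose Sagunja-tang had 102 and 116 CPM and high-dose Palmul-tang 124, 120 and 123 CPM. HIF1A fell in all 12 comparisons with vehicle, by 0.20 to 0.39, as did 2.79% of all genes. These 12 comparisons share the same 3 vehicle libraries. HIF1A was called in none between high and low dose. The subunit is governed largely by protein stability, which these data do not measure. EPAS1, its paralogue, fell at the high dose of all 4 formulas, by 0.21 to 0.53, as did 7.11% of all genes in direction. MYC, which drives many glycolytic genes, was at 329, 302 and 307 CPM with high-dose and 249, 258 and 257 CPM with low-dose Sibjeondaebo-tang, while vehicle had 309, 311 and 312 CPM. The high-dose libraries spanned vehicle and the low-dose ones were below it. Over vehicle MYC was called lower at the low dose (-0.33 to -0.22) and the medium dose (-0.24 to -0.17) of all 4 formulas. The share of all genes called lower at both doses of every formula was not counted. At the high dose it was called lower with Sagunja-tang (-0.23 ± 0.05) and not called with the other formulas. Between high and low dose MYC rose by 0.29 ± 0.05 with Sibjeondaebo-tang, 0.25 ± 0.05 with Palmul-tang and 0.23 ± 0.06 with Samul-tang, and stood at 0.09 ± 0.06 with Sagunja-tang, which was not called.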

How the data were processed

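RNA of 33 HT29 libraries was sequenced as 100 bp paired ends with a stranded kit. The submitters' processing notes name FastQC 0.11.9, Trim Galore 0.6.5, STAR 2.7.3a, RSEM 1.3.3 and GRCh38; the annotation release is not given in the sources used here. The authors deposited RSEM expected counts for 60675 genes; 9.45% of values were not whole, and all were rounded before testing. Of 273 columns 33 matched the labels, and 240 were not used. One edgeR 4.0.16 quasi-likelihood model (R 4.3.3) with 13 groups, TMM scaling and filterByExpr at a minimum of 10 counts tested 17432 genes in 20 contrasts, with Benjamini-Hochberg adjustment in each and a threshold of 0.05. The standard error is the log2 fold change divided by the root of F. CPM are TMM-normalized. RSEM divides reads between near-identical genes, and the counts of pseudogenes were added as a check. Replicate numbers did not pair the libraries (correlations of deviations -0.067 to 0.109 over 18 pairs of groups). Replicates differed beyond counting error in all 27 pairs. The members and lists were chosen with earlier results of these data known. All members were named by role, with values per library for the member of smallest p in each role; PFKM, GAPDH, ALDOA, LDHB, SLC16A3, SLC16A1 and PDK2 were added after their values were seen. Other pathway genes were named where called in 2 or more formulas. The procedure was tested on simulated data, and promoters came from RefSeq tables. Other drug treatments of the series are not analysed here.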

Additional observations from a re-analysis of the deposited data

Results flagged for a closer look

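Between formulas at 500 µg/mL, 5 genes were higher with Samul-tang than with Sagunja-tang by a direct test (edgeR, adjusted over all genes, of which 3.55% were called higher). The log2 differences were 0.43 for HK2, 0.38 for PDK1, 0.21 for SLC2A1, 0.19 for LDHA and 0.16 for PFKP. For each, 2 of 2 Samul-tang libraries were above both Sagunja-tang libraries. Here and for the next pair of formulas the same libraries gave the calls, so this order is no separate support. With only the groups compared in the fit 0 of the 5 were called, and without Sagunja-tang replicate 2 LDHA alone was. Sibjeondaebo-tang was above Palmul-tang by 0.11 for both ALDOA and LDHA, in 3 of 3 libraries, against 0.350% of all genes called higher; the ALDOA call was lost whichever library was left out and the LDHA call without 3 of the 6. The step between low and high dose of SLC16A1 was larger with Sibjeondaebo-tang than with Palmul-tang by 0.15. That call was lost whichever of the 12 libraries was left out. Of all genes, 1.45% were called for this difference of steps, 0.0287% higher and 1.42% lower. Groups of 2 or 3 libraries are too small for a test of single outlying libraries.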

How the results depend on the processing

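No called result of the 31 genes changed sign under any alternative that was run. The other pathway genes and the regulators were not followed in these alternatives, so their calls were not checked in this way. Here and above, counts from these alternatives stand without the share of all genes called in the same fit. Whether the 31 genes lost more calls than all genes did was not tested. Leaving out 1 library moved the number of the 31 genes called at the high dose over vehicle between 11 and 21 with Sagunja-tang (16 with all libraries), 14 and 20 with Samul-tang (20), 18 and 22 with Palmul-tang (20), and 24 and 27 with Sibjeondaebo-tang (27). At the medium dose the ranges were 0 to 10, 1 to 14, 2 to 14 and 9 to 15 in the same order of formulas, and at the low dose 3 to 13, 1 to 13, 4 to 13 and 3 to 14. For high over low dose they were 0 to 14, 5 to 10, 10 to 12 and 16 to 20. Samul-tang over Sagunja-tang ran between 1 and 13, Sibjeondaebo-tang over Palmul-tang between 0 and 2, and the differences of steps between 0 and 6 for the first pair of formulas and 0 for the second. With only the groups compared in the fit, which leaves fewer libraries to estimate the spread, 8 genes were called for high-dose and 4 for medium-dose Sagunja-tang, 7 for medium-dose Samul-tang, 5 for medium-dose and 7 for low-dose Palmul-tang. That fit called 0 for Sagunja-tang high over low, 0 for Samul-tang over Sagunja-tang, 1 for Sibjeondaebo-tang over Palmul-tang and 0 for their steps. DESeq2 called 8 for Samul-tang over Sagunja-tang, 4 for Sibjeondaebo-tang over Palmul-tang and 2 for their steps. With no filter on low counts Sibjeondaebo-tang over Palmul-tang called 1, its steps 0 and the Samul-tang and Sagunja-tang steps 2. With the replicate block the Samul-tang and Sagunja-tang steps called 1, and the block moved no other count by over 1.5 times. With trends in GC content and length removed, an alternative chosen after seeing the data, Sibjeondaebo-tang over Palmul-tang called 1, which was lower, and its steps 0. The cause of these changes was not tested. Size factors of DESeq2 in edgeR and pseudogene counts moved none of the counts by over 1.5 times. Depth limits PDK3 most, at 1.59 to 2.73 CPM.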

Other observations

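Of the 42 other pathway genes listed, 15 did not pass the filter on low counts. Among them were paralogues known from other tissues, and HT29 cells carried almost none of the transcripts of those given here. The hexokinase HK3 averaged 0.00750 CPM over the 33 libraries and PKLR, the pyruvate kinase of liver and red cells, 0.0140 CPM. LDHC, the lactate dehydrogenase of testis, stood at 0.00708 CPM and the neuronal glucose transporter SLC2A3 at 0.00225 CPM. EMB, a chaperone of monocarboxylate transporters, averaged 0.000721 CPM, while its relative BSG, which serves MCT1 and MCT4, averaged 409 CPM. PDHA2 and MPC1L, both known from testis, were at 0 in all libraries.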
